A study of Mus musculus with 18 samples.

Results

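The transcription factor ATF4, its target genes and the genes of the unfolded protein response of the endoplasmic reticulum (ER) were followed through the first 72 hr after naphthalene in mouse airway cells. The set held 32 genes chosen by name, out of 19938 genes measured by a probe set with a single gene symbol, and each of the 32 was measured. Where a gene had several probe sets, the one with the highest mean over all 18 arrays stood for it. The genes were divided by role into 4 classes: 9 genes of ATF4 signalling and feedback, 8 of amino acid and one-carbon supply, 11 ER chaperones and folding enzymes, and 4 genes around XBP1 and ER-associated degradation. The 8 supply genes included Vldlr, which encodes a lipoprotein receptor.

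Total RNA was hybridised to Affymetrix arrays, 3 for each of 6 groups. The groups were control and Cebpa d/d mice at 0, 3 and 72 hr after naphthalene, a compound that airway club cells convert to a toxic product. The samples were labelled as terminal bronchiolar epithelial cells of the lung, and all mice had a mixed background of FVB/N and C57BL/6. Cebpa encodes the transcription factor C/EBPα. Age, sex, dose, the control genotype, the driver of the Cebpa deletion and any pooling of animals are not given in the sources used here. The samples carry replicate numbers without a statement that each came from its own animal, so any p-value here reflects how much these arrays varied, part of which may be technical.

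When unfolded proteins build up in the ER, amino acids run short or oxidants rise, kinases phosphorylate the initiation factor eIF2α; general translation slows while the ATF4 message is translated more. ATF4 then turns on genes for amino acid uptake and synthesis, for the transcription factors CHOP (Ddit3) and ATF3, and for feedback on its own pathway. The ER branches run through ATF6 and through IRE1, which splices Xbp1 RNA, and they raise chaperones such as BiP (Hspa5). The arrays read RNA, so phosphorylation, ATF4 protein and Xbp1 splicing were not measured.

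Promoter sequences are shown for a pair of elements known from these pathways. RefSeq promoter windows (GRCm38.p6, 250 bases before to 50 bases after a transcription start) were found for 28 of the 32 genes and not for Eif4ebp1, Slc7a5, Hyou1 and Manf. The core of the element bound by ATF4 with C/EBP proteins was searched as TGATGNAA on both strands. It was present in 6 of the 28 genes (Atf3, Trib3, Nupr1, Asns, Vldlr and Herpud1), against 4.51% of all 27029 genes counted the same way, over any of their starts, and 3.97% of all 32851 promoter windows. It was found in 3 of 8 signalling genes, 2 of 7 supply genes, 1 of 4 XBP1 and degradation genes and 0 of 9 chaperone genes. In these 4 windows, capitals mark the match, which lies on the opposite strand in all but Asns:
Atf3: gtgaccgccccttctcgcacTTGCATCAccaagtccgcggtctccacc
Trib3: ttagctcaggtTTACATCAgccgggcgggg
Asns: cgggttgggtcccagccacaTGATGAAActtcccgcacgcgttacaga
Herpud1: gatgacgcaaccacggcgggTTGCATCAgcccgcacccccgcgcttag
All are written 5′ to 3′ along the gene. Counted from the transcription start, the matches lie at -110 to -103 in Atf3 (window chr1:191183416-191183463, minus strand), +15 to +22 in Trib3 (chr2:152344028-152344057, minus strand), -23 to -16 in Asns (chr6:7693205-7693252, minus strand) and -112 to -105 in Herpud1 (chr8:94386297-94386344, plus strand).

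The ER stress response element, through which ATF6 and XBP1 act on chaperone genes, was searched as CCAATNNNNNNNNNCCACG on both strands. It was present in 6 of the 28 genes, all 6 among the 9 chaperone genes with a window (Hspa5, Hsp90b1, Calr, Pdia6, Dnajc3 and Creld2), against 0.137% of all genes over any of their starts and 0.119% of all promoter windows. None of the 19 genes of the other 3 classes with a window held it. Capitals mark the match in 4 of them, on the gene's own strand in Hspa5 and Pdia6 and on the opposite strand in Calr and Creld2:
Hspa5: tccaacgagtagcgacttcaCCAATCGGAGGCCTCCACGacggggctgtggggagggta
Calr: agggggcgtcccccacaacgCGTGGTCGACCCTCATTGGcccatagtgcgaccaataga
Pdia6: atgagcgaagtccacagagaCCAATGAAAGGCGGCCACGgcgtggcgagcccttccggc
Creld2: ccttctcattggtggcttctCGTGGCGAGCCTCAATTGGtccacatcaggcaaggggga
The matches lie at -65 to -47 in Hspa5 (window chr2:34772005-34772063, plus strand), -162 to -144 in Calr (chr8:84847055-84847113, minus strand), -98 to -80 in Pdia6 (chr12:17266471-17266529, plus strand) and -126 to -108 in Creld2 (chr15:88819500-88819558, plus strand). A match describes these letters only, and no binding was measured. None of the 28 genes held both elements.

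Levels are the deposited log2 values, whose array medians lay between 6.48 and 6.65. The level of Cebpa checks the genotype labels. It was 9.69 to 10.52 in 8 of the 9 control arrays and 7.83 to 9.07 in the 9 Cebpa d/d arrays, while the array labelled control 0 hr replicate 1 stood at 7.89. Xist, which marks female cells, was high in all 6 arrays at 72 hr (10.07 to 10.26) and in 1 of 3 arrays of each group at 0 and 3 hr. Transcripts of 8 club cell genes were high in every array, with mean levels of 11.52 to 12.38, and genes of other cell types were present too. The markers measured were 80 genes in 11 lists (club cells and the cell types around them). Of the 80, 0 were called higher at 3 hr than at 0 hr (limma, adjusted p under 0.05). Over all genes, 1.88% were called higher in control and 2.66% in Cebpa d/d. Called lower were 7 markers in control and 11 in Cebpa d/d, where 1.62% and 1.72% of all genes were. An unadjusted limma p under 0.05 was reached by 26 markers in each genotype, against 21% and 17.2% of all genes. The values were above 0 for 15 of the 80 in control, all 7 neutrophil markers among them, and for 26 in Cebpa d/d. In Cebpa d/d, 9 of the 11 called lower were the 9 cardiac muscle markers, whose mean level per array was 10.44 to 11.31 at 0 hr and 8.10 to 8.76 at 3 hr. In bulk samples, fewer cells of a type and less RNA per cell cannot be told apart.

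At 3 hr after naphthalene 12 of the 17 genes of the ATF4 signalling and supply classes rose in control and 13 of 17 in Cebpa d/d, while 1 of 11 chaperones rose in each. In control mice 13 of the 32 genes rose and 0 fell, where 1.88% of all genes tested rose and 1.62% fell (limma, Benjamini-Hochberg adjusted p under 0.05). In Cebpa d/d mice 15 rose and 0 fell, where 2.66% of all genes rose and 1.72% fell. The 13 genes that rose in control were all among the 15 in Cebpa d/d, and Nupr1 and Herpud1 were the others. Over all genes, the 240 called higher in both made up 64.2% of the control list and 45.2% of the Cebpa d/d list. The median difference of the 32 genes was 0.44 on the log2 scale in control and 0.43 in Cebpa d/d, against 0.03 and -0.02 over all genes. All 3 arrays at 3 hr lay above all 3 at 0 hr for 20 of the 32 genes in control and 18 in Cebpa d/d, where 11.3% and 10.7% of all genes did so.

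**Figure D1:**
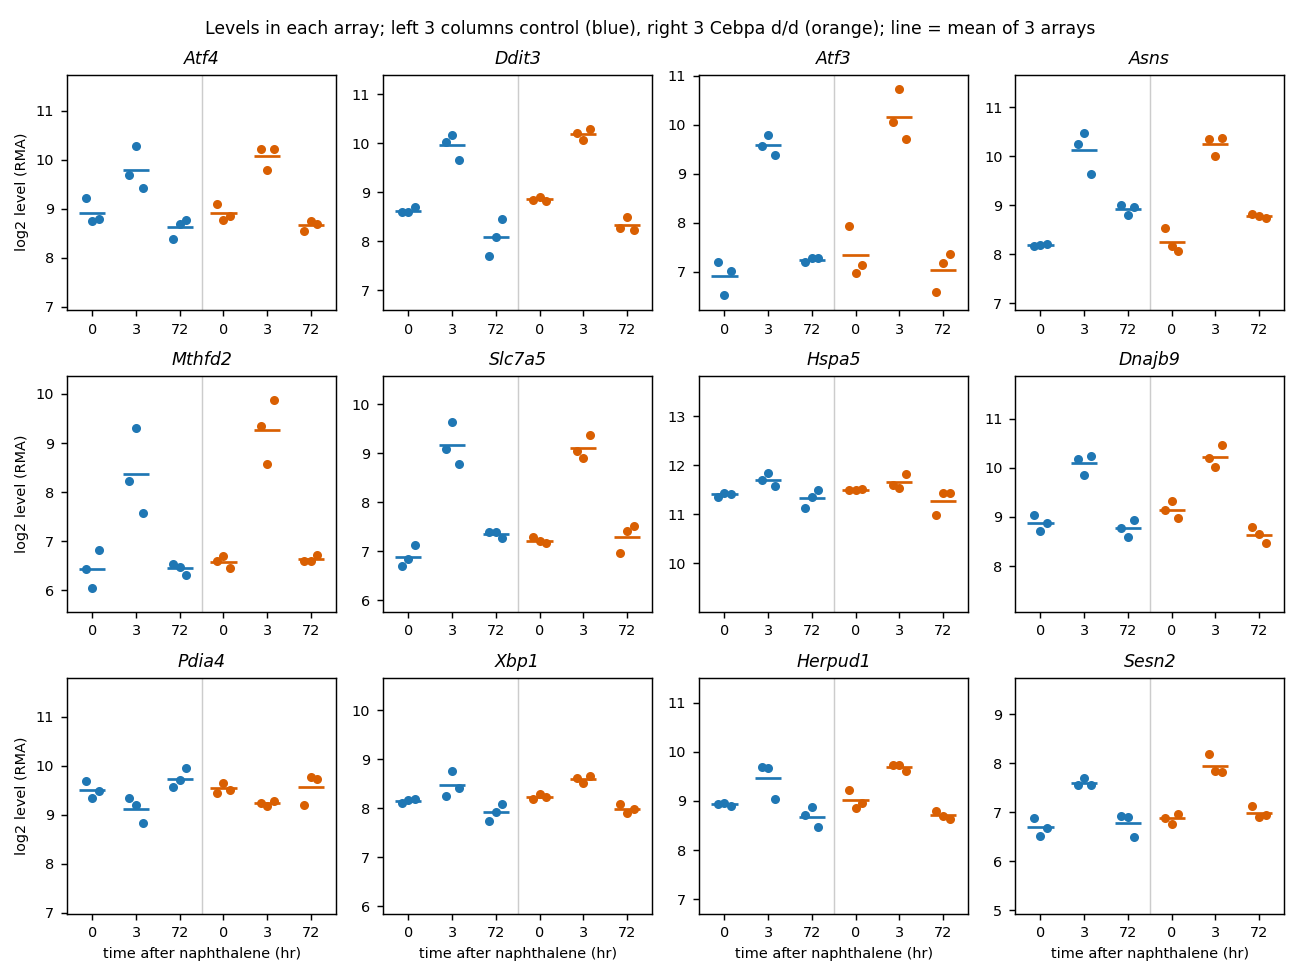
Log2 level of genes named in the text, in each of the 18 arrays, by time after naphthalene (0, 3 and 72 hr) and genotype; each point is 1 array and each horizontal bar is a group mean of 3 arrays. Atf4, Ddit3, Atf3 and Asns stand clear of the other times at 3 hr in both genotypes, Hspa5 is higher by a small margin, and Pdia4 is not.

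Among the signalling genes, 7 of 9 rose in control and 8 of 9 in Cebpa d/d, with median differences of 0.88 and 1.07. Atf4 itself stood at 9.21, 8.74 and 8.80 in the control arrays at 0 hr, at 9.69, 10.28 and 9.41 at 3 hr, and at 8.39, 8.69 and 8.78 at 72 hr. The Cebpa d/d arrays gave 9.08, 8.77 and 8.86 at 0 hr, 10.22, 9.79 and 10.21 at 3 hr, and 8.55, 8.74 and 8.68 at 72 hr. Every 3 hr array was above every array of the other times, in both genotypes. The 3 hr increase was 0.88 ± 0.19 in control (log2 difference ± SE, 1.84-fold, adjusted p = 0.0199) and 1.17 ± 0.19 in Cebpa d/d (2.25-fold, adjusted p = 0.0017). The control call for Atf4 was lost without control 0 hr replicate 2 (adjusted p = 0.0506), control 0 hr replicate 3 (0.0731) or control 3 hr replicate 2 (0.0713). With only the 2 control groups in the fit, the control calls at 3 hr were lost for Atf4 (0.174), Trib3 (0.224), Ppp1r15a (0.0952), Eif4ebp1 (0.103), Mthfd2 (0.113) and Slc7a1 (0.0824), which left 7 of the 13.

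Atf3, a transcription factor induced early by many stresses, moved the most of the 32 genes. Its levels were 7.20, 6.52 and 7.02 in control at 0 hr, 9.56, 9.80 and 9.39 at 3 hr, and 7.20, 7.28 and 7.27 at 72 hr. Its levels in Cebpa d/d were 7.94, 6.98 and 7.14 at 0 hr, 10.06, 10.73 and 9.71 at 3 hr, and 6.59, 7.18 and 7.36 at 72 hr. The 3 hr arrays lay clear of all the others, and the 0 and 72 hr arrays lay close together or overlapped. Atf3 rose by 2.67 ± 0.27 in control (6.36-fold, adjusted p = 5.30e-05) and by 2.81 ± 0.27 in Cebpa d/d (7.03-fold, adjusted p = 1.47e-05).

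Ddit3 encodes CHOP, a factor tied to cell death when ER stress lasts. In control its levels were 8.59, 8.60 and 8.69 at 0 hr, 10.03, 10.17 and 9.66 at 3 hr, and 7.70, 8.08 and 8.46 at 72 hr. Cebpa d/d arrays were at 8.84, 8.90 and 8.83 at 0 hr, 10.20, 10.05 and 10.29 at 3 hr, and 8.27, 8.50 and 8.22 at 72 hr. The 3 times did not overlap in either genotype: 3 hr was highest and 72 hr lowest. The 3 hr increase was 1.33 ± 0.16 in both genotypes (2.51-fold, adjusted p = 0.000158 in control and 8.76e-05 in Cebpa d/d).

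Feedback genes rose as well. Ppp1r15a, which encodes the GADD34 subunit that brings a phosphatase to eIF2α, rose by 1.0034 ± 0.19 in control (adjusted p = 0.00867) and 1.10 ± 0.19 in Cebpa d/d (adjusted p = 0.00231). Sesn2 and Eif4ebp1, which restrain mTORC1 signalling and cap-dependent translation, rose by 0.91 ± 0.13 and 0.56 ± 0.10 in control and by 1.07 ± 0.13 and 0.63 ± 0.10 in Cebpa d/d. Trib3, a pseudokinase that restrains ATF4 and CHOP and whose promoter window is shown above, rose by 0.48 ± 0.11 in control (adjusted p = 0.0254) and 0.52 ± 0.11 in Cebpa d/d (adjusted p = 0.0105). The smallest of these calls, Trib3, was the least stable: in control it was lost without the array labelled control 0 hr replicate 1, control 0 hr replicate 3, or control 3 hr replicate 2 or 3 (adjusted p = 0.0782 to 0.102), and in Cebpa d/d without 3 hr replicate 1 or 3 (0.0545 and 0.0546).

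Nupr1, a small stress-induced chromatin protein, passed in Cebpa d/d (0.94 ± 0.17, adjusted p = 0.00312) and not in control (0.53 ± 0.17, adjusted p = 0.0869). The test of that difference between genotypes did not pass (adjusted p = 0.734). Atf5, a relative of ATF4, was the 1 signalling gene that passed in neither genotype, with differences of 0.12 ± 0.08 and 0.07 ± 0.08. Its arrays ranged from 8.29 to 8.58 over all 12 arrays at 0 and 3 hr.

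**Figure D2:**
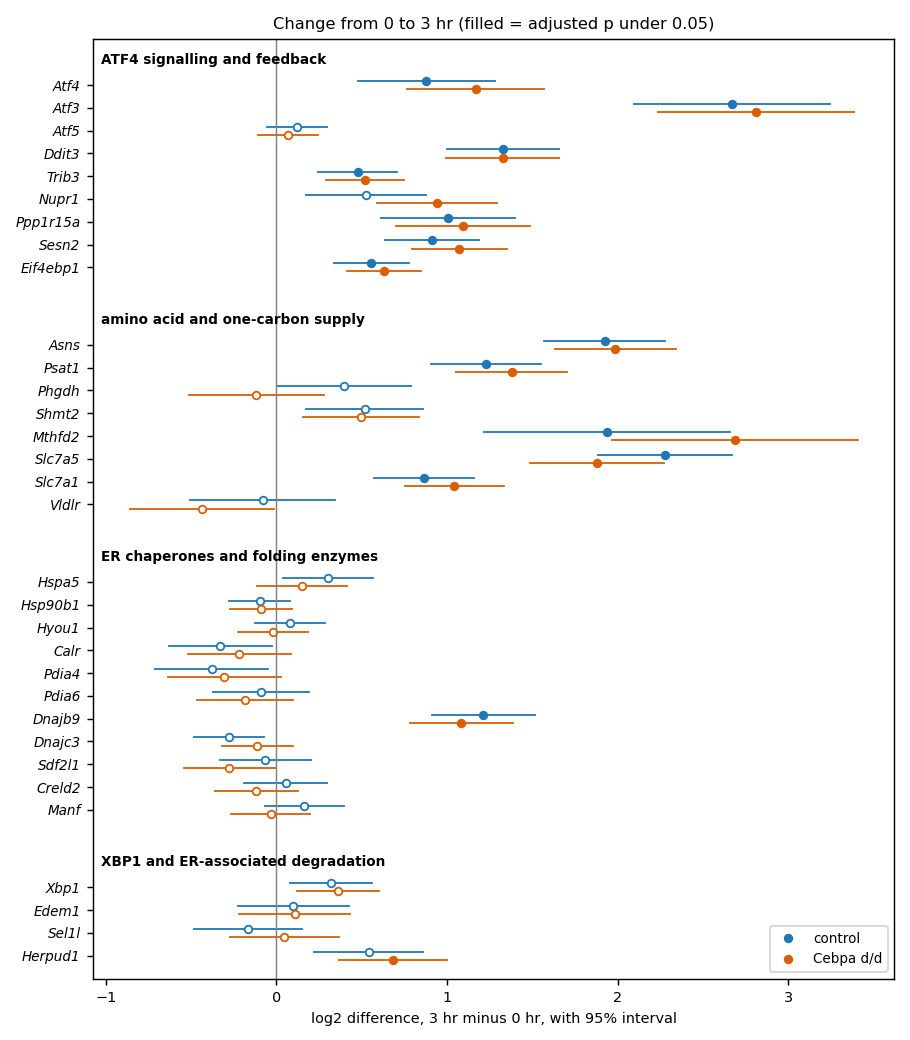
Log2 difference between 3 hr and 0 hr for each of the 32 genes, by role class and genotype, with its 95% interval; filled points have an adjusted p under 0.05. The 2 upper classes hold 12 filled points of 17 in control and 13 of 17 in Cebpa d/d, and Dnajb9 is the 1 filled chaperone in each.

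Amino acid and one-carbon genes rose for 5 of 8 members in each genotype, the same 5 genes. The median differences were 1.05 (control) and 1.21 (Cebpa d/d). Asns makes asparagine and carries the ATF4 element shown above close to its start. Its control levels were 8.18, 8.20 and 8.21 at 0 hr, 10.25, 10.47 and 9.64 at 3 hr, and 9.01, 8.80 and 8.97 at 72 hr. Its Cebpa d/d levels were 8.54, 8.16 and 8.06, then 10.35, 10.0035 and 10.37, then 8.82, 8.78 and 8.75 at the same times. Asns thus peaked at 3 hr with no overlap, and its 72 hr arrays lay between those of the other times. The 3 hr increase was 1.92 ± 0.17 in control (3.80-fold, adjusted p = 6.48e-06) and 1.99 ± 0.17 in Cebpa d/d (3.96-fold, adjusted p = 4.03e-06).

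Slc7a5 encodes LAT1, the exchanger that brings large neutral amino acids into the cell. In control it measured 6.70, 6.84 and 7.12 at 0 hr, 9.09, 9.63 and 8.78 at 3 hr, and 7.39, 7.39 and 7.27 at 72 hr. Its Cebpa d/d arrays measured 7.29, 7.20 and 7.17 at 0 hr, 9.04, 8.89 and 9.37 at 3 hr, and 6.96, 7.41 and 7.51 at 72 hr. The 3 hr arrays were all above the rest. It rose by 2.28 ± 0.19 in control (4.85-fold, adjusted p = 3.60e-06) and 1.88 ± 0.19 in Cebpa d/d (3.68-fold, adjusted p = 1.73e-05). Slc7a1, a carrier of cationic amino acids, rose by 0.87 ± 0.14 and 1.04 ± 0.14.

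Mthfd2, a mitochondrial enzyme of the folate cycle, had the widest spread at 3 hr. In control it was at 6.43, 6.04 and 6.81 at 0 hr, 8.22, 9.31 and 7.57 at 3 hr, and 6.54, 6.48 and 6.31 at 72 hr. The Cebpa d/d values were 6.60, 6.70 and 6.45 at 0 hr, 9.35, 8.58 and 9.88 at 3 hr, and 6.60, 6.60 and 6.71 at 72 hr. The 3 hr arrays lay above all others in both genotypes, over a range of more than 1 log2 unit within each group. The increase was 1.94 ± 0.34 in control (3.82-fold, adjusted p = 0.00616, and 0.113 with only the control groups in the fit) and 2.69 ± 0.34 in Cebpa d/d (6.44-fold, adjusted p = 0.00017).

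Calls differed among the enzymes of serine synthesis. Psat1, the aminotransferase of that pathway, rose by 1.23 ± 0.15 in control (adjusted p = 0.000308) and 1.38 ± 0.15 in Cebpa d/d (adjusted p = 5.19e-05). Phgdh, the first enzyme of the same pathway, did not pass in either (0.40 ± 0.19, adjusted p = 0.238, and -0.12 ± 0.19, adjusted p = 0.83). A further probe set, assigned to both Gm6756 and Phgdh and so left out of the test, lay higher at 3 hr in Cebpa d/d. There it was at 6.96, 6.87 and 6.98 at 0 hr and 7.12, 7.19 and 7.09 at 3 hr, while its control arrays overlapped. Shmt2, which moves a carbon unit from serine to folate in mitochondria, differed by 0.52 ± 0.16 (adjusted p = 0.083) and 0.49 ± 0.16 (adjusted p = 0.102). Vldlr, a lipoprotein receptor with an ATF4 element match in its promoter, did not pass either, at -0.08 ± 0.20 and -0.44 ± 0.20.

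Of the 11 chaperones and folding enzymes, Dnajb9 was the 1 that rose, in both genotypes, and 0 fell. The median difference of the class was -0.06 in control and -0.11 in Cebpa d/d. Dnajb9 encodes ERdj4, a co-chaperone of BiP that is induced through XBP1, and its promoter window held neither element. In control it stood at 9.05, 8.71 and 8.89 at 0 hr, 10.18, 9.86 and 10.24 at 3 hr, and 8.78, 8.60 and 8.95 at 72 hr. Values in Cebpa d/d were 9.14, 9.33 and 8.98, then 10.20, 10.02 and 10.47, then 8.80, 8.65 and 8.47. All 3 hr arrays were above all others. It rose by 1.21 ± 0.14 in control (2.32-fold, adjusted p = 0.000158) and by 1.08 ± 0.14 in Cebpa d/d (2.12-fold, adjusted p = 0.000255).

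Hspa5 encodes BiP, the chaperone most used to read the unfolded protein response, and its promoter carries the ER stress element shown above. Control levels were 11.36, 11.43 and 11.42 at 0 hr, 11.70, 11.84 and 11.57 at 3 hr, and 11.12, 11.35 and 11.49 at 72 hr. Cebpa d/d levels were 11.49, 11.50 and 11.52 at 0 hr, 11.60, 11.53 and 11.82 at 3 hr, and 10.98, 11.43 and 11.43 at 72 hr. The 3 hr arrays were above the 0 hr arrays in both genotypes, by a small margin. The difference of 0.30 ± 0.12 in control did not pass the test (95% interval 0.04 to 0.56, adjusted p = 0.179), nor did that of 0.15 ± 0.12 in Cebpa d/d (95% interval -0.11 to 0.41, adjusted p = 0.609). These intervals leave out a 1.5-fold rise.

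The other genes with an ER stress element in the promoter were no higher. Hsp90b1 (GRP94), Calr (calreticulin, a lectin chaperone), Pdia6 (a disulfide isomerase), Dnajc3 (a co-chaperone that inhibits the kinase PERK) and Creld2 differed by -0.10, -0.33, -0.09, -0.28 and 0.05 in control and by -0.09, -0.22, -0.18, -0.11 and -0.12 in Cebpa d/d, and none passed the test. Pdia4, another disulfide isomerase, was at 9.68, 9.34 and 9.49 in control at 0 hr, 9.34, 9.20 and 8.82 at 3 hr, and 9.56, 9.70 and 9.94 at 72 hr. For Cebpa d/d the values were 9.45, 9.65 and 9.50, then 9.24, 9.17 and 9.27, then 9.19, 9.77 and 9.72. Its 3 hr arrays were all below the 0 hr arrays in Cebpa d/d and overlapped them by 1 array in control, with differences of -0.38 ± 0.16 (adjusted p = 0.176) and -0.30 ± 0.16 (adjusted p = 0.336). Manf, Sdf2l1 and Hyou1, 3 further ER proteins raised by the unfolded protein response, differed by 0.16, -0.06 and 0.08 in control and -0.03, -0.28 and -0.02 in Cebpa d/d.

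The class around XBP1 held 0 genes that rose in control and 1, Herpud1, in Cebpa d/d. Xbp1 levels in control were 8.10, 8.17 and 8.19 at 0 hr, 8.24, 8.76 and 8.41 at 3 hr, and 7.74, 7.92 and 8.09 at 72 hr. Those of Cebpa d/d were 8.19, 8.28 and 8.22 at 0 hr, 8.61, 8.51 and 8.65 at 3 hr, and 8.08, 7.91 and 7.99 at 72 hr. Each time stood apart from the others in both genotypes, with 3 hr highest, yet the test was not passed by the 3 hr differences of 0.32 ± 0.11 in control (adjusted p = 0.125) or 0.36 ± 0.11 in Cebpa d/d (adjusted p = 0.0908).

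Herpud1, a membrane protein of the degradation complex with an ATF4 element in its promoter, was at 8.94, 8.96 and 8.89 in control at 0 hr, 9.70, 9.68 and 9.03 at 3 hr, and 8.71, 8.87 and 8.47 at 72 hr. Cebpa d/d values were 9.22, 8.85 and 8.97, then 9.73, 9.74 and 9.62, then 8.80, 8.70 and 8.63. All 3 hr arrays were higher, with control 3 hr replicate 3 only just so. The increase passed in Cebpa d/d (0.68 ± 0.15, 1.61-fold, adjusted p = 0.0146) and not in control (0.54 ± 0.15, adjusted p = 0.0576), and the difference between genotypes did not pass (adjusted p = 0.906). The Cebpa d/d call was lost without 0 hr replicate 2 (adjusted p = 0.081) or 3 hr replicate 1 (0.0601). Edem1 and Sel1l, which sort and export misfolded proteins, differed by 0.10 and -0.17 in control and by 0.11 and 0.05 in Cebpa d/d.

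Pathway genes outside the 32 were taken from lists chosen with earlier results of these data known. At 3 hr, 1.88% of all genes rose and 1.62% fell in control, and 2.66% and 1.72% in Cebpa d/d. Of 24 other ATF4 targets, 8 rose in control and 12 in Cebpa d/d, with medians of 0.45 and 0.53. Slc7a11, the cystine importer, was at 6.91, 5.70 and 5.64 in control at 0 hr and 11.35, 10.9985 and 10.98 at 3 hr, and at 5.92, 5.38 and 5.70 then 10.73, 10.80 and 11.04 in Cebpa d/d. Among 18 aminoacyl-tRNA synthetases, which charge tRNAs and include many ATF4 targets, 10 rose in control and 9 in Cebpa d/d; Yars rose by 0.90 and 1.17 and Tars by 0.85 and 1.09. Of 10 ER stress sensors and eIF2α kinases, 1 rose in each genotype: Ern1, which encodes IRE1α, by 0.37 in control (adjusted p = 0.0261) and 0.49 in Cebpa d/d (adjusted p = 0.00261). Of 20 other ER folding genes 0 passed in either genotype, with medians of -0.10 and -0.04. Of 23 other genes of ER-associated degradation and translocation, 1 fell in control and 0 passed in Cebpa d/d. The counts for the other folding, degradation and translocation genes at 3 hr were near the shares of all genes. Prdx4 rose from 0 to 72 hr, by 0.88 in control (limma adjusted p = 0.0049) and 0.69 in Cebpa d/d (0.0261). It was the 1 of the 20 folding genes to rise, and 2 fell in control. Of all genes 4.95% and 3.39% rose, and 2.2% fell in control. From 3 to 72 hr in control, 4 of the 20 rose and 2 fell, and of the 23 genes 5 rose and 1 fell. Of all genes 11.2% rose and 8.57% fell. In Cebpa d/d 2 of the 20 rose and 1 fell, and 0 of the 23 passed, against 4.88% and 3.67%.

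Within a 3 hr group, the ATF4 genes tended to be high or low in the same array. In control, replicate 3 was the lowest of its group for 13 of the 17 genes of the 2 ATF4 classes and replicate 2 the highest for 12, where 33.5% and 28.5% of all genes had those arrays lowest and highest. In Cebpa d/d, replicate 2 was the lowest for 13 of 17, where 36.2% of all genes were. The arrays with high Xist at 3 hr were replicate 2 in both genotypes, the highest array for these genes in control and the lowest in Cebpa d/d. Such shared shifts were not particular to ATF4 genes or to 3 hr. Cebpa d/d 3 hr replicate 3 was the highest for 11 of the 15 chaperone and degradation genes, where 32.9% of all genes were. Cebpa d/d 72 hr replicate 1 was the lowest for 10 of the 17 ATF4 genes, where 34% of all genes were. For 0, 3 and 72 hr in turn, the mean level of the 17 genes per array was 7.57 to 7.70, 8.44 to 8.92 and 7.71 to 7.78 in control, and 7.69 to 7.81, 8.72 to 8.90 and 7.61 to 7.78 in Cebpa d/d. All 9 cardiac muscle markers fell at 3 hr in Cebpa d/d, with a median difference of -2.79. In control 0 of 9 were called with limma, with a median of -0.84 and 6 of 9 at an unadjusted p under 0.05. Their part in the 3 hr results was not tested. Removing the array labelled control 0 hr replicate 1 left 12 of the 32 genes higher in control and 15 in Cebpa d/d.

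By 72 hr most of the 32 genes were near their 0 hr level. In control, Asns and Psat1 were still higher and Ddit3 and Atf5 lower than at 0 hr, so 2 rose and 2 fell of 32, where 4.95% of all genes rose and 2.2% fell. Asns was higher by 0.73 ± 0.17 (adjusted p = 0.0145) and Psat1 by 0.84 ± 0.15 (adjusted p = 0.0036). Psat1 stood at 6.83, 6.54 and 6.74 at 0 hr, 7.90, 8.18 and 7.71 at 3 hr, and 7.46, 7.69 and 7.47 at 72 hr, with no overlap between times. Ddit3 was lower by 0.54 on the log2 scale (-0.54 ± 0.16, adjusted p = 0.0453) and Atf5 had a difference of -0.34 ± 0.08 (adjusted p = 0.0211). Atf5 went from 8.29, 8.31 and 8.36 at 0 hr to 8.06, 7.93 and 7.96 at 72 hr.

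Between 72 and 0 hr, 0 of the 32 genes passed in Cebpa d/d with limma, where 3.39% of all genes rose and 1.42% fell; 8 had an unadjusted p under 0.05, as did 17.5% of all genes. The difference was below 0 for 23 of the 32 and above 0 for 9, with a median of -0.13, against -0.02 over all genes. All 72 hr arrays lay below all 0 hr arrays for 10 genes (11.3% of all genes) and above them for 3 (12.2%). In control, 15 were below 0 and 17 above, with a median of 0.04. Values for the genes called in control were 0.53 for Asns (adjusted p = 0.0863), 0.52 for Psat1 (0.0637), -0.53 for Ddit3 (0.0654) and -0.29 for Atf5 (0.0526). The tests of the difference between genotypes did not pass for any of the 32. Dnajb9 was nearest to a call in Cebpa d/d, at -0.51 ± 0.14 (adjusted p = 0.0509). Atf4 itself differed by -0.30 (adjusted p = 0.411) in control and -0.25 (0.567) in Cebpa d/d.

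**Figure D3:**
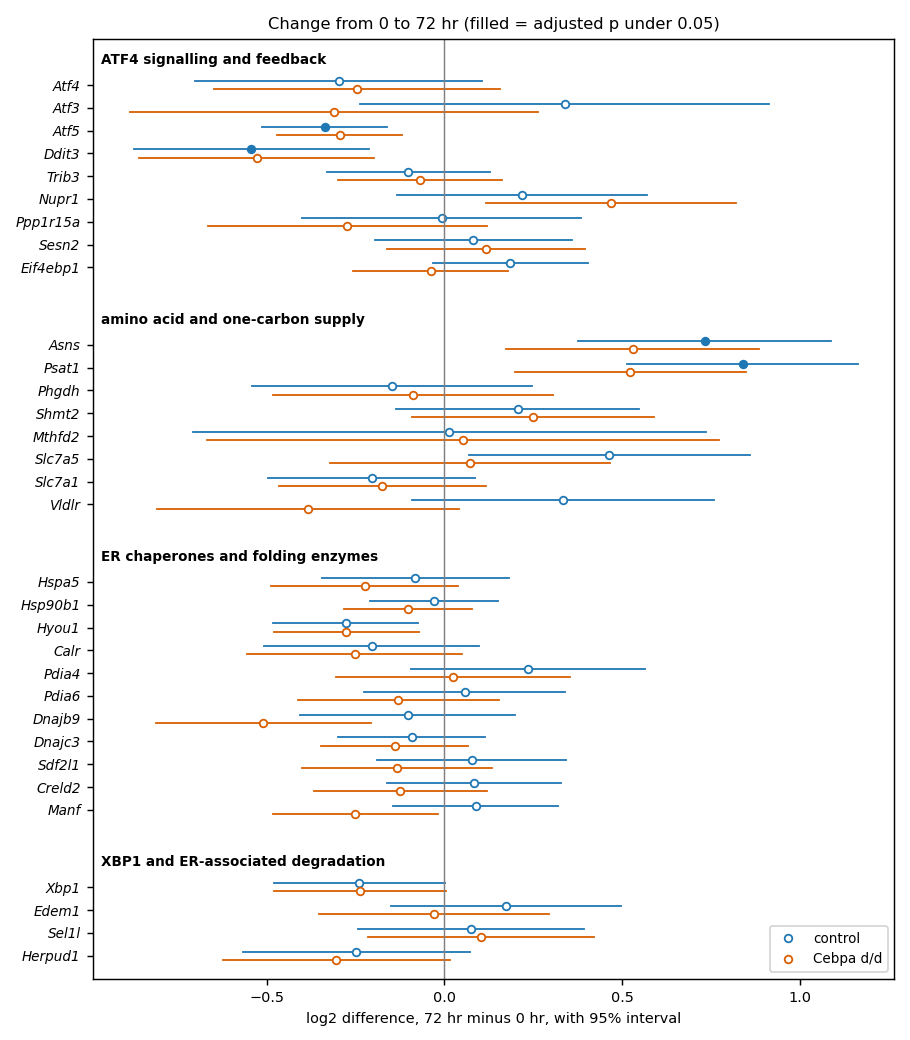
Log2 difference between 72 hr and 0 hr for each of the 32 genes, by role class and genotype, with its 95% interval; filled points have an adjusted p under 0.05. Asns and Psat1 lie to the right and Ddit3 and Atf5 to the left, filled in control.

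All arrays at 72 hr had high Xist, and other cell markers moved at that time. In control, 4 of 7 macrophage markers rose from 0 to 72 hr (mean level per array 7.21 to 7.42, then 8.07 to 8.50). Lower calls came from 4 of 6 endothelial, 2 of 8 club cell, 2 of 7 mucous cell and 1 of 7 B and plasma cell markers. Single markers of the ciliated cell, alveolar type 2 and fibroblast lists were called higher. Over all genes, 4.95% rose and 2.2% fell in control, and 3.39% and 1.42% in Cebpa d/d. In Cebpa d/d, 5 of 10 ciliated cell markers rose, and 8 of 9 cardiac muscle, 2 of 6 endothelial and 2 of 7 mucous cell markers fell. Their part in the 72 hr results was not tested. With Xist as a covariate, entered as high or low with a split at 7.72, Psat1 kept its call in control. Asns, Atf5 and Ddit3 did not (adjusted p = 0.0724, 0.0569 and 0.0881). As every 72 hr array was high, the effect of the covariate was estimated from the arrays at 0 and 3 hr alone. The call for Asns was lost without control 72 hr replicate 3 (0.0516), for Atf5 without control 0 hr replicate 2 or 3 or control 72 hr replicate 2 or 3 (0.0549 to 0.0976), and for Ddit3 without any of 12 single arrays (0.0501 to 0.178). Control 0 hr replicates 2 and 3 and control 72 hr replicates 2 and 3 each left 2 calls in control when removed. In Cebpa d/d, removing control 3 hr replicate 3 gave 4 calls, removing Cebpa d/d 72 hr replicate 1 gave 2, and 9 other single arrays gave 1.

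The descent from 3 to 72 hr uses the same 3 hr arrays as the rise, so it is a second view of that peak. In control 17 of the 32 genes fell and 1 rose, where 8.57% of all genes fell and 11.2% rose. In Cebpa d/d 16 fell and 0 rose, where 3.67% fell and 4.88% rose. Both lists shared 15 genes, with Hspa5 and Hyou1 in control and Psat1 in Cebpa d/d as the others. Atf4 fell by 1.18 in control (adjusted p = 0.000577) and by 1.41 in Cebpa d/d (adjusted p = 0.000239). Xbp1 fell by 0.56 (adjusted p = 0.0031) and 0.60 (adjusted p = 0.00402), and Herpud1 by 0.79 and 0.99.

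Of the 11 chaperones, 3 fell and 1 rose from 3 to 72 hr in control, and 1 fell in Cebpa d/d. Dnajb9 fell by 1.32 in control (adjusted p = 2.59e-05) and by 1.59 in Cebpa d/d (adjusted p = 3.95e-06). Pdia4 was the 1 gene that rose, by 0.62 ± 0.16 in control (adjusted p = 0.0118), and its call was lost without control 3 hr replicate 3 (0.0697) or control 72 hr replicate 3 (0.0631). A second probe set of Pdia4, at 4.45 to 5.13 in all arrays, did not follow it, and the mean of both gave an adjusted p of 0.157. Hspa5 fell by 0.38 (adjusted p = 0.0404) and Hyou1 by 0.36 (adjusted p = 0.0166) in control. The Hspa5 call was lost without control 3 hr replicate 1 or 2 or control 72 hr replicate 1 or 2 (0.0703 to 0.15), after centring each array on its median (0.165), with Xist as a covariate (0.0889) and with only the groups compared in the fit (0.0792). The Hyou1 call was lost without control 3 hr replicate 2 or control 72 hr replicate 1 or 2 (0.0504 to 0.0655) and after centring (0.0693). In control at 72 hr, replicate 1 was the lowest of its group for 12 of the 15 chaperone and degradation genes, where 33.2% of all genes were.

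No gene of the 32 passed the test between genotypes at any time. At 0, 3 and 72 hr 0 were called with limma, where 0.336%, 0.015% and 0.0702% of all genes were called; 2, 4 and 0 had an unadjusted p under 0.05, against 8.53%, 5.02% and 6.31% of all genes. For the mean of the 3 times 0 were called, where 0.306% of all genes were, and 5 had an unadjusted p under 0.05, against 8.57% of all genes. The change from 0 to 3 hr differed between genotypes for 0 of the 32 genes and for 0% of all genes; 0 of the 32 had an unadjusted p under 0.05, against 6.85% of all genes. The change from 0 to 72 hr differed for 0 of the 32, where 0.0953% of all genes were called, and 2 had an unadjusted p under 0.05, against 4.47% of all genes. Cebpa itself was not called at 0, 3 or 72 hr, with differences of -1.31, -2.14 and -1.28. Its limma adjusted p was 0.309, 0.152 and 0.609. It was called as the mean of the 3 times (-1.58, adjusted p = 0.00953). At 0 hr, 5 of the 9 cardiac muscle markers were called higher in Cebpa d/d, where 0.326% of all genes were. Their mean level per array was 7.68 to 9.55 in control and 10.44 to 11.31 in Cebpa d/d. Their part in the genotype results was not tested.

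**Figure D4:**
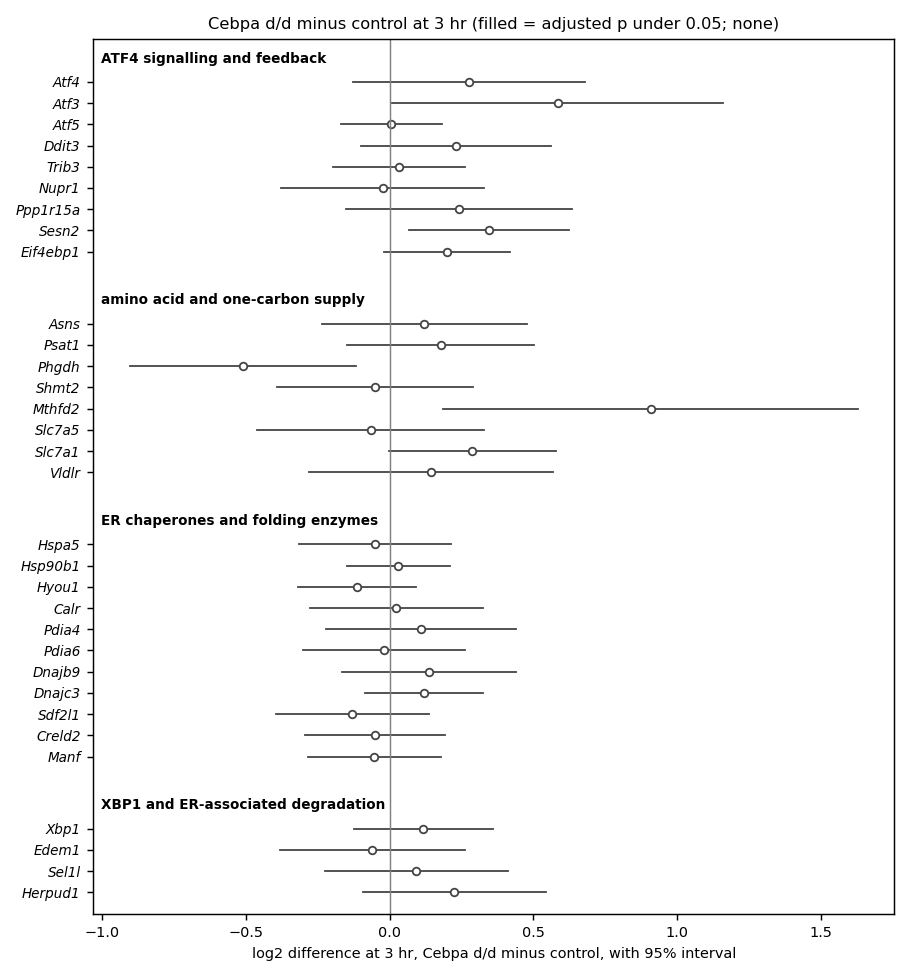
Log2 difference between Cebpa d/d and control at 3 hr for each of the 32 genes, by role class, with its 95% interval. No gene has an adjusted p under 0.05; Mthfd2 has the highest value and Phgdh the lowest.

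At 3 hr the smallest p-values between genotypes belonged to Phgdh, Mthfd2 and Sesn2. Phgdh was at 7.45, 7.34 and 7.57 in control and 6.91, 7.33 and 6.59 in Cebpa d/d. All Cebpa d/d arrays were lower, replicate 2 only just so, and the difference was -0.51 ± 0.19 (95% interval -0.90 to -0.12, unadjusted p = 0.0145, adjusted p = 0.944). The probe set assigned to both Gm6756 and Phgdh, left out of the test, overlapped between genotypes at 3 hr: it was at 7.21, 7.08 and 7.18 in control and 7.12, 7.19 and 7.09 in Cebpa d/d. Sesn2 was at 7.55, 7.69 and 7.56 in control and 8.18, 7.83 and 7.82 in Cebpa d/d, all higher, with a difference of 0.34 ± 0.13 (95% interval 0.07 to 0.62, adjusted p = 0.954). Its group mean was also higher in Cebpa d/d than in control at 0 hr (6.87 against 6.69) and 72 hr (6.99 against 6.77), with overlapping arrays. Mthfd2, whose arrays are given above, overlapped between genotypes, and its difference was 0.91 ± 0.34 (95% interval 0.19 to 1.63, adjusted p = 0.954). For Atf4 the difference was 0.28 ± 0.19 (95% interval -0.13 to 0.68, adjusted p = 0.986), an interval that reaches further above 0 than below it. Outside the 32, Chac1, an ATF4 target that breaks down glutathione, was the 1 of 95 other pathway genes called between genotypes at 3 hr. Its levels were 7.85, 8.31 and 7.66 in control and 8.82, 8.88 and 8.76 in Cebpa d/d, a difference of 0.88 ± 0.13 (adjusted p = 0.0326). Over all genes 0.015% were called in this comparison. The limma test of whether the 0 to 3 hr change of Chac1 differed between genotypes did not pass (adjusted p = 0.192). Its genotype difference as the mean of the 3 times did not pass either (adjusted p = 0.0544). For that mean, 1 of the 24 other ATF4 targets, not Chac1, was called higher in Cebpa d/d, where 0.135% of all genes were. The alternatives were not run for Chac1.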

How the data were processed

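Per the submitters' processing notes, the authors processed the arrays with RMA (version not given in the sources used here); the deposited values lie between 2.53 and 13.93 and were read as log2 intensities. RMA sets the arrays to a common distribution, so a difference is relative to the other genes, and small changes are understated at low signal. Raw scanner files were not used here; precision is limited by the 3 arrays of each group.

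Of 35557 probe sets, 21789 had 1 gene symbol, 1621 several and 12147 none; the single-symbol probe sets gave 19938 genes, of which 19856 were found in the RefSeq table of GRCm38.p6. limma 3.58.1 in R 4.3.3 fitted the means of 6 groups over 18 arrays (12 residual and 4.49 prior degrees of freedom), and p-values were Benjamini-Hochberg adjusted over all genes, with calls under 0.05. The procedure was tested on simulated data. The genes, role classes and lists were chosen with earlier results of these data known. Named genes were the anchors Atf4, Ddit3, Hspa5 and Xbp1, and, in each class, up to 3 called genes with the largest change over the 6 time comparisons. The 3 genes with the smallest p over the 6 genotype comparisons and interactions were also named. Other genes, Chac1 and Slc7a11 among them, were named for their role or value after their values were seen. Alternatives were the gene filter, probe sets, centring, array weights, variance model, covariates, the arrays in the fit and the call rule.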

Additional observations from a re-analysis of the deposited data

How the results depend on the processing

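The 66 calls among the 32 genes were recomputed 1844 times under the alternatives; 1768 kept the call, 76 lost it and 0 reversed, and 47 calls were kept under every alternative. Leaving out 1 array at a time gave 11 to 16 calls for 3 hr against 0 hr in control, 13 to 16 in Cebpa d/d, 2 to 4 and 0 to 4 for 72 hr against 0 hr, 16 to 20 and 15 to 17 for 72 hr against 3 hr, and 0 for each genotype test and interaction. With only the groups compared in the fit, control had 7 calls at 3 hr, 2 at 72 hr, and Cebpa d/d 1 at 72 hr; the smaller fit has fewer residual degrees of freedom. At 72 hr control had 1 call with Xist as covariate and 2 with an unadjusted p under 0.05 and a 1.5-fold change. Cebpa d/d at 72 hr had 4 calls without genes below the median level, 5 with array weights, and 2 without both replicate 1 of Cebpa d/d at 72 hr and the array labelled control 0 hr replicate 1; the cause was not tested. The unadjusted rule with a 1.5-fold change gave 1 gene between genotypes at 3 hr and 1 in the 72 hr interaction. Replicate numbers did not pair the samples (7 of 45 correlations of deviations over 0.1, from -0.288 to 0.199); with the number as a replicate block the counts were 14, 15, 3, 0, 18 and 16 for the time comparisons in the order above.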
